A study of Mus musculus with 36 samples.

Results

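The genes described here are those whose RNA followed the time of day in control mouse hearts and was highest in the morning. They were chosen by fitting a 24 h cosine curve to log2(FPKM + 1) over the 18 control libraries. FPKM counts fragments relative to gene length and to the fragments of the whole library. A gene was a member if the curve took up at least 0.5 of its variance (R squared), rose at least 0.2 above its mean on the log2 scale (the amplitude) and peaked from 4 am up to 10 am. The mean FPKM over all 36 libraries had to be at least 1. Of 10599 genes at that level, among 23352 listed, 102 were members (0.962%). The clock genes Arntl, Clock and Npas2 and the rhythmic genes Col5a3 and Slc41a3 met the thresholds too and were left out by name. The control values therefore chose the members and are given as a description, with no test.

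The libraries were of ribosome-depleted total RNA from the apex of the heart of male C57BL/6 mice aged 11 to 12 weeks, housed in 12 h of light and 12 h of dark. Controls were alpha-MHC cre mice, in which a heart-muscle promoter drives the recombinase, and the other mice, cK15, were knocked out for Klf15, a Kruppel-like transcription factor of heart metabolism. The labels name cre only for the controls, and they do not describe the Klf15 allele or the cells in which it was deleted. To compare the circadian transcriptomes, hearts were taken every 4 h from 12 am (read as midnight, hour 0) to 8 pm (hour 20), with 3 libraries for each genotype and time. Klf15 was at 1.45 ± 0.727 FPKM in control (SD, n = 18) and was listed at 0 in 13 of the 18 cK15 libraries, with a highest value of 0.326. No source used here states when the lights came on.

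In the molecular clock, CLOCK or NPAS2 pairs with BMAL1 (the product of Arntl), binds E-box sequences and drives the Per, Cry and Nr1d genes, whose products then act back on the pair. The proteins of Nr1d1 and Nr1d2 (REV-ERB alpha and beta) repress, and ROR proteins activate, genes with a ROR element, such as Arntl. Mice are active at night, so morning falls in their rest phase if lights come on in the morning. Heart rate, blood pressure, feeding and hormones also follow the day, so that a rhythmic RNA in the heart can follow either the cells' own clock or signals from the body.

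The sequence before the annotated start is shown for 4 members because their time of peak invites the question whether they carry clock elements. In a window from 250 bases before to 50 after the start (RefSeq, GRCm38.p6; 75 of the 102 members matched by symbol), the ROR and REV-ERB element TAGGTCA was found on either strand in 3 members, Leo1, Tuba8 and, after the start, Etl4 (4.0%, against 2.97% of all 27025 genes with a window). The E-box CACGTG was found in 9 members (12.0%, against 8.09% of all), and the D-box TTATGNAA, bound by DBP and related factors, in 3 (4.0%, against 3.99%). None of these motifs contains another. A match describes the letters in the window and does not show binding. Leo1 (chr9:75441274-75441523, plus strand) encodes a subunit of the PAF1 transcription elongation complex, Tuba8 (chr6:121210484-121210733, plus strand) an alpha tubulin, Adam19 (chr11:46054252-46054501, plus strand) a membrane metalloprotease, and Rcan1 (chr16:92466170-92466419, minus strand) an inhibitor of the phosphatase calcineurin. The 250 bases before each start are given 5′ to 3′ on the gene's strand, with the elements in capitals. The start used for Leo1 lies 509 bases inside the span that RefSeq gives the gene (75441015 to 75466432), so its window is within that span, and in the other 3 the start is the first base of the span. Tuba8 carries the ROR element on the opposite strand, written TGACCTA, and an E-box as well.
Leo1: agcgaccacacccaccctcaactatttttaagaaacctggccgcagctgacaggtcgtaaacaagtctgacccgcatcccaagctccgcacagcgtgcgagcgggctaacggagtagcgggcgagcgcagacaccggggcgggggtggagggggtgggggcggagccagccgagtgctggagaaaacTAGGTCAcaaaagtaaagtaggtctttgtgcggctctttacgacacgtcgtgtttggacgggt
Tuba8: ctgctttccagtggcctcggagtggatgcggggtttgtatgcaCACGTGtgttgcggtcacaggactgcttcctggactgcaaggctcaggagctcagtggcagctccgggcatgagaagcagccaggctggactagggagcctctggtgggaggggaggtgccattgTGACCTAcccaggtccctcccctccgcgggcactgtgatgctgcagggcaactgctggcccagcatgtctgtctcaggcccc
Adam19: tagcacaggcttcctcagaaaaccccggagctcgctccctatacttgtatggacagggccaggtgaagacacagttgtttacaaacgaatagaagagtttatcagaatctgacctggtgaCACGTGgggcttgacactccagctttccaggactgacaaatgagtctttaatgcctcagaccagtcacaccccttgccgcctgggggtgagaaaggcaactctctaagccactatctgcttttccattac
Rcan1: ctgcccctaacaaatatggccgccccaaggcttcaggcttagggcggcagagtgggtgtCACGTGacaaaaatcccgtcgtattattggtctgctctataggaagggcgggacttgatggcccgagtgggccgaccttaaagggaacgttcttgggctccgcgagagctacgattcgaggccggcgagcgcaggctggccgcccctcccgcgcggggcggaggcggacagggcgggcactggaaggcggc
The ROR element began 63 bases before that start in Leo1 and 82 in Tuba8, and the E-box began 207 bases before it in Tuba8, 130 in Adam19 and 191 in Rcan1. The 4 genes lie on 4 chromosomes, and the 102 members were spread over 18, with the highest number, 13, on chromosome 11.

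The number of reads per library is not known from FPKM, and precision was judged from the spread between libraries only. A set of 12 libraries, 1 in each of the 12 groups, stood apart, with 16.1 to 17.7% of its FPKM in the top 10 genes, where the other 24 had 21.7 to 25%. The counts of members that passed each test are given with and without these libraries.

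In control hearts the members had a common shape. The highest of the 6 time means was at 8 am in 81 of 102 members, at 4 am in 10, at 12 pm in 10 and at 12 am in 1. The lowest was at 8 pm in 76, at 4 pm in 17 and at 12 am in 9. The fitted peak had a median of 7.80 h, with 17 members from 4 to 6 h, 38 from 6 to 8 h and 47 from 8 to 10 h. The ratio of the highest to the lowest time mean had a median of 1.82 and ran from 1.34 to 29.1. The amplitude ran from 0.20 to 1.05 with a median of 0.31, and R squared from 0.50 to 0.92 with a median of 0.60. Most members were RNAs of modest level: the mean FPKM had a median of 6.93 (1.03 to 377), with 42 members under 5 and 5 at 100 or more. At the edges of the rule, R squared was 0.501 in Vstm4 (inside) and 0.497 in Xirp1 (outside), and the amplitude was 0.2017 in Btnl9 and 0.1997 in BC018507. The peak was at 4.04 h in Phc2 and 3.84 h in Pfkfb2 at the early edge, and at 9.99 h in Col4a1 and 10.03 h in Cd55 at the late one.

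**Figure D1:**
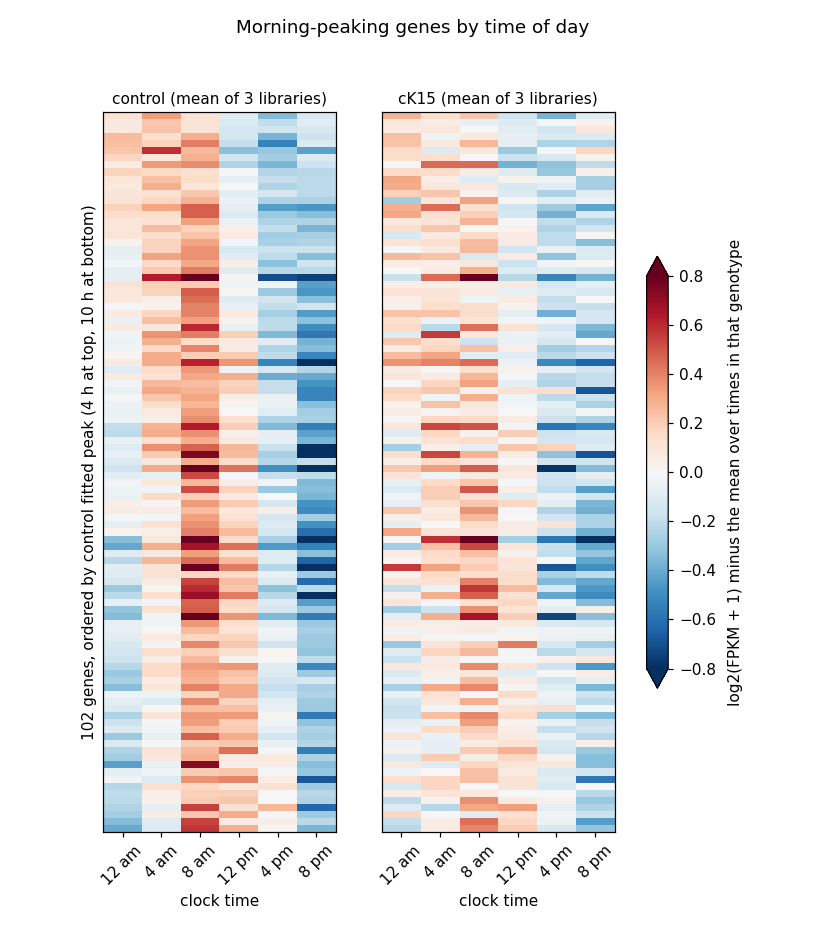
Rows are the 102 members in the order of their fitted peak hour in control, and columns are the 6 sampled times in control (left) and cK15 (right); color is the mean log2(FPKM + 1) at a time minus the mean over times in that genotype. Control columns are highest at 8 am in 81 members, a pattern that the choice favors, and cK15 columns are highest at 8 am in 54.

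The cK15 libraries entered the choice of members through the mean FPKM over all 36 libraries alone, and their time course was not used, so their rhythm is the same measure in other samples. Of the 102 members, 18 (17.6%) passed the test of a 24 h curve in the 18 cK15 libraries (limma, Benjamini-Hochberg adjusted p under 0.05 over all genes), where 1.08% of all tested genes passed. All 18 peaked from 4 to 10 h in cK15 too, at 4.27 to 8.91 h. Among all genes, 0.387% passed with a peak in that window. Among genes chosen alike at other peak hours, 15.8% (10 to 16 h), 35.2% (16 to 22 h) and 15.2% (22 to 4 h) passed. At an unadjusted p under 0.05 there were 57 members (55.9%), against 8.95% of all genes. The fitted cK15 peak, called or not, lay from 4 to 10 h in 79 members (77.5%, against 22.5% of all genes), from 22 to 4 h in 17, from 10 to 16 h in 6 and from 16 to 22 h in 0. The number of members that passed was 9 without the 12 libraries that stood apart, 7 of them among the 18 (Spon2, Adam19, Kdr, Eln, Colq, Ankrd23 and Rcan1), and 35 with a term for those libraries, all 18 included. It was 7 when the 6 times were compared with no curve, and 7, 3 and 6 without the cK15 libraries of replicate 1, 3 and 4.

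Without those 12 libraries the limma adjusted p of Nppb, Epha4, Col4a1, Arhgef10l, Trp53i11, Clmp, Clasp1 and Thbs1 lay between 0.0502 and 0.183. Leaving out all cK15 libraries of 1 replicate number ended the call of Adam19 (adjusted p of 0.0658 and 0.132), Colq (0.178 and 0.451), Nppb (0.0828 and 0.239), Epha4 (0.115 and 0.173) and Col4a1 (0.059 and 0.0997) for 2 of the 3 numbers. For Eln, Clmp, Arhgef10l, Trp53i11, Clasp1 and Thbs1 it did so for each of the 3 (0.0838 to 0.45). With 6 time means in place of the curve the calls of Nppb, Colq, Eln, Col4a1, Trp53i11, Arhgef10l, Thbs1, Clmp and Clasp1 were lost (0.0513 to 0.346). The calls of Col6a3, Grip2 and Ypel2 were lost in all of these settings. They were also lost without any 1 of the cK15 libraries of 12 am and 4 am with replicate number 1 or 4. The same held for the cK15 libraries of 8 am replicate 3, 12 pm replicate 1, 4 pm replicate 1 and 8 pm replicates 1 and 4.

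In 16 members every cK15 library of 4 am and 8 am lay above every cK15 library of 4 pm and 8 pm, a pattern found in 0.425% of all tested genes. They were Adam19, Ankrd23, Arhgef10l, Clasp1, Clmp, Eln, Epha4, Grip2, Kdr, Nedd9, Nppb, Rcan1, Spon2, Trp53i11, Vegfa and Ypel2. For Kdr, the gene of VEGF receptor 2, the lowest of the 6 morning values was 69.0 FPKM and the highest of the 6 afternoon and evening values 53.7. For Vegfa, the gene of a ligand of that receptor, they were 44.2 and 40.0. Vegfa itself did not pass the adjusted test (limma adjusted p = 0.137).

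Matrix and adhesion genes made up 16 of the members, the largest of the 6 groups of roles, and 8 of them passed in cK15. The groups were formed after the values were seen, so their counts are a description. Spon2, which encodes the secreted matrix protein spondin 2 (chr5:33213518-33218254, GRCm38), had the largest control amplitude, 1.05. In control it was at 5.91, 7.5 and 8.5 FPKM in the 3 libraries of 8 am and at 0.159, 0.167 and 0.428 at 8 pm. In cK15 it was at 2.8, 3.29 and 4.2 at 8 am and at 0.154, 0.18 and 0.215 at 8 pm. All 8 am libraries of both genotypes stood above all 8 pm libraries. The cK15 amplitude was 0.88, SE 0.11 with a peak at 6.12 h (limma adjusted p = 0.000316), against a control peak at 8.16 h. The call was lost without the cK15 libraries of replicate 3 (adjusted p = 0.0781).

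Eln encodes tropoelastin, the building block of elastic fibers. It was at 17.1, 17.5 and 20.3 FPKM at 8 am and 4.25, 4.72 and 9.15 at 8 pm in control. The cK15 values were 8.95, 13.5 and 18.5 at 8 am and 3.45, 4.8 and 4.96 at 4 pm, its lowest time. These groups did not overlap, although 1 of the 8 am libraries was close to the level of 4 am (8.8, 9.4 and 11.8). Its cK15 amplitude was 0.59, SE 0.11 (limma adjusted p = 0.0191), and the adjusted p was 0.0575 without the 8 am library of replicate 4.

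Adam19 had the closest fit to the curve in control, with an R squared of 0.923. Its control libraries were at 11.9, 14.5 and 14.8 FPKM at 8 am and 3.29, 3.58 and 4.56 at 8 pm, and its cK15 libraries at 10.2, 11.4 and 18.4 and 4.32, 5.02 and 5.51. The peak stood at 6.35 h in control and 6.16 h in cK15, and the cK15 amplitude was 0.64, SE 0.098 (limma adjusted p = 0.00299). Colq, which encodes the collagen-like tail that anchors acetylcholinesterase, was at 7.6, 10.6 and 13.5 FPKM at 4 am and 3.77, 3.83 and 3.94 at 8 pm in cK15 (amplitude 0.52, SE 0.091, limma adjusted p = 0.00995). Its 8 pm values lay within a narrow band below all those of 4 am and 8 am.

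Col4a1, a chain of basement membrane collagen, was among the most abundant members. It was at 144, 206 and 206 FPKM at 8 am and 76.8, 101 and 111 at 8 pm in control, and at 130.4, 162 and 164 and 85.8, 92.2 and 101 in cK15. The morning libraries were above the evening libraries in both genotypes (cK15 amplitude 0.34, SE 0.053, limma adjusted p = 0.00318). Col4a1 and its neighbor Col4a2 overlap in the annotation, and the counting rule for shared reads is not given. Col6a3, of the microfibril-forming collagen VI, passed in cK15 with an amplitude of 0.38, SE 0.079 (limma adjusted p = 0.0485), larger than the 0.34 of control.

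Clmp, a cell adhesion protein of the immunoglobulin superfamily, was a low RNA, at 1.28, 1.36 and 1.99 FPKM at 8 am and 0.347, 0.56 and 0.674 at 8 pm in cK15 (limma adjusted p = 0.0115). Thbs1, which encodes the secreted glycoprotein thrombospondin 1, was at 2.15, 3.36 and 5.39 FPKM at 8 am and 0.991, 1.19 and 1.37 at 8 pm in cK15 (limma adjusted p = 0.0289). The 3 Thbs1 libraries of 8 am were far apart, and its adjusted p was between 0.0512 and 0.0838 without any 1 of 6 libraries (cK15 8 am replicates 1 and 3, 12 pm replicate 1 and 8 pm replicates 1, 3 and 4). Among the 8 matrix and adhesion members that did not pass in cK15 were genes of integrins (Itga6, Itga11 and Itgb6), the protease Adamts9, the collagen-modifying enzyme P4ha1 and the matricellular protein gene Cyr61. Itga6 came nearest (limma adjusted p = 0.0529).

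The 5 members in the list of extracellular matrix genes, Spon2, Eln, Col4a1, Col6a3 and Thbs1, are set here beside the whole list. Of 33 matrix genes tested, 18 (54.5%) met the thresholds of R squared and amplitude in control at any peak hour, as did 3.42% of all tested genes. These are the control values that the rule used, and the list was chosen with earlier results known, so the shares are a description. Of the 18, 5 peaked in the window, 11 between 10 and 14 h, just after it, and the remaining 2, the protease inhibitors Timp3 and Timp4, at 20.5 and 22.8 h. In cK15, 11 of the 33 (33.3%) passed the rhythm test, 9 with a peak from 4 to 10 h. The 2 with another cK15 peak were Col3a1 (10.2 h) and Timp3 (18.6 h). The 9 were the 5 members and 4 others: Col4a2, Col15a1, Mmp14 and the fibrillin gene Fbn1. In control these 4 had peaked at 10.1, 10.4, 10.5 and 10.6 h, and in cK15 they peaked at 9.05, 9.04, 8.48 and 9.03 h. They missed the set of members by the late edge of the window, and Mmp14 also by its R squared of 0.457.

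Receptors, guidance molecules and genes of vessel growth made up 10 members, of which 2 passed in cK15 and 8 had an unadjusted p under 0.05. Kdr (chr5:75932827-75979072) was at 96.9, 104 and 105 FPKM at 8 am and 40.2, 40.7 and 55.8 at 8 pm in control. In cK15 it was at 80.5, 81.1 and 98 at 8 am and 41.1, 52.8 and 53.4 at 8 pm. Both sets of morning libraries stood clear of the evening ones, and 12 pm and 4 am lay in between (cK15 amplitude 0.38, SE 0.053, peak 6.71 h, limma adjusted p = 0.00127). The call was lost without the cK15 libraries of replicate 3 (adjusted p = 0.0668).

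Kdr was the only member among 7 genes that mark endothelial cells. The summed FPKM of the other 6 (Pecam1, Cdh5, Tek, Tie1, Emcn and Egfl7) was 384.3 ± 19 at 8 am and 361.2 ± 14.9 at 8 pm in control (SD, n = 3), and 358.4 ± 12.3 and 334.3 ± 24.9 in cK15. In proportion, the sums of 8 am and 8 pm were closer together than the values of Kdr. In control, Pecam1, Cdh5, Tek, Tie1 and Emcn had fitted peaks between 4.95 and 7.83 h, and Egfl7 at 17.01 h. The amplitudes of the 6 were 0.029 to 0.153, against 0.483 for Kdr, and their highest R squared was 0.494 (Cdh5). Whether Kdr shares a rhythm with them was not tested. In bulk tissue, fewer cells of a type and less RNA per cell cannot be told apart.

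Epha4, a receptor tyrosine kinase for ephrins, was at 16, 19.1 and 21.9 FPKM at 8 am and 10.004, 11.5 and 13.6 at 8 pm in control. In cK15 its 4 am libraries were at 22.4, 22.6 and 22.6 and its 8 pm libraries at 12.7, 14.3 and 14.5 (amplitude 0.36, SE 0.056, limma adjusted p = 0.00303). Tnfrsf12a, the receptor of the cytokine TWEAK, had a large control amplitude (0.74) but scattered in cK15. Its 8 am libraries were at 18, 49.9 and 56.1 FPKM and its 8 pm libraries at 20.4, 20.5 and 27.5, so that 1 morning library lay below all evening ones (limma adjusted p = 0.314). It overlaps Hcfc1r1 in the annotation. Vegfa, the receptor genes Nrp2, Plxnd1 and Relt, the semaphorin Sema6d, the vessel inhibitor Vash1 and the adhesion receptor Gpr133 did not pass the adjusted test, at adjusted p from 0.128 (Plxnd1) to 0.947 (Vash1).

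Of 8 members tied to the load and calcium signals of heart muscle, 3 passed in cK15. Nppb (chr4:147985786-147987205) encodes the precursor of B-type natriuretic peptide, a hormone that heart muscle releases when it is stretched. It was at 584, 605 and 776 FPKM at 8 am in control and at 73.8, 99.9 and 270.2 at 8 pm. In cK15 the values were 426, 575 and 648 at 8 am and 287, 295 and 332 at 8 pm. At 8 pm all 3 cK15 libraries lay above all 3 of control, and at 8 am the groups overlapped. Its amplitude was 1.02 in control and 0.57, SE 0.097 in cK15 (limma adjusted p = 0.0097). That difference in amplitude was not tested, since the rule used the control value.

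Ankrd23, which encodes a muscle ankyrin repeat protein that binds the giant protein titin (chr1:36530193-36536556), was among the 5 members of highest level. It was at 276, 344 and 371 FPKM at 8 am and 107, 116 and 127 at 8 pm in control, and at 265, 319 and 319 and 139, 144 and 171 in cK15. The gap between morning and evening libraries was wider than the spread within either (cK15 amplitude 0.49, SE 0.058, limma adjusted p = 0.000143). Rcan1 was at 14.8, 21.2 and 22 FPKM at 8 am and 6.68, 7.996 and 8.96 at 8 pm in control, and at 15.3, 21.3 and 22.3 and 7.29, 8.03 and 12.5 in cK15. It had the smallest adjusted p of any member in cK15 (amplitude 0.62, SE 0.073, limma adjusted p = 0.000126), and the only larger cK15 than control amplitude among these 8. The calls of Ankrd23 and Rcan1 held under all 32 alternatives that were run for them.

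**Figure D2:**
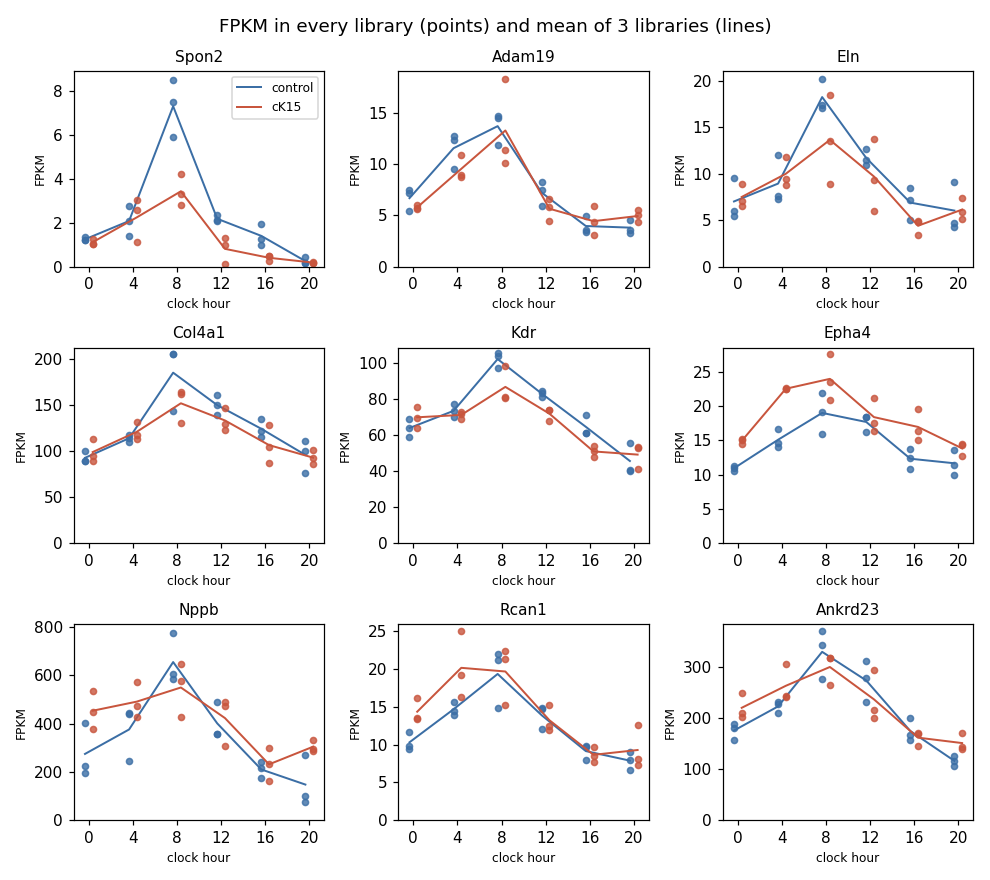
Each panel shows a member's FPKM in every library by clock time, with control and cK15 in separate colors, a point per library and lines through the means of 3 libraries. The libraries of 8 am stand above those of 8 pm in both genotypes in all 9 panels, and Epha4 in cK15 reaches 27.6 FPKM against 21.9 in control.

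Murc (cavin 4, a caveolar protein of muscle), Rrad (a small GTPase that restrains calcium channels), Grk5 (a kinase of adrenergic and other receptors) and Dysf (dysferlin, of membrane repair) did not pass in cK15. Grk5 had a cK15 amplitude of 0.22, SE 0.061 against 0.22 in control, at limma adjusted p = 0.224. Rrad was at limma adjusted p = 0.265. In the list of hypertrophy genes, Nppb and Rcan1 were the only members among 21 tested and the only ones to pass in cK15.

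Among 13 genes of the cytoskeleton and of small GTPases, 2 passed. Clasp1, which stabilizes microtubule ends, was at 113, 125 and 126 FPKM at 8 am and 88.4, 89.8 and 94.7 at 8 pm in cK15 (amplitude 0.22, SE 0.041, limma adjusted p = 0.0211). Its adjusted p was 0.0512 to 0.0611 without any 1 of 5 libraries (cK15 4 am replicate 4, 8 am replicate 4 and 8 pm replicates 1, 3 and 4). Arhgef10l, an exchange factor for small GTPases, was at 25.4, 26.7 and 27.1 FPKM at 8 am and 19.4, 20.3 and 21.4 at 8 pm in cK15 (amplitude 0.20, SE 0.034, limma adjusted p = 0.00755). Both had small amplitudes with little scatter between libraries. A further 3 that passed were in none of the groups of roles: Trp53i11, induced by p53 (4.28, 5.46 and 5.47 FPKM at 8 am and 1.79, 2.3 and 2.43 at 8 pm in cK15, limma adjusted p = 0.00995), Grip2, a scaffold that binds glutamate receptors (adjusted p = 0.0485) and Ypel2 (adjusted p = 0.038). The libraries of 8 am and 8 pm did not overlap in any of Clasp1, Arhgef10l and Trp53i11.

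None of the 14 members of transport and metabolism passed in cK15, and 4 had an unadjusted p under 0.05. Tfrc, the transferrin receptor that brings iron into cells, was at 54.1, 57.6 and 78.9 FPKM at 8 am and 21.7, 21.9 and 39.6 at 8 pm in control. In cK15 it was at 38.8, 70.9 and 96.7 and 24.8, 30.03 and 48.2. The cK15 libraries of 8 am overlapped those of 8 pm (amplitude 0.45, SE 0.13, limma adjusted p = 0.255). Slc38a2, a carrier of neutral amino acids, was at 47.2, 63.3 and 73.1 FPKM at 8 am and 41.2, 46.9 and 59.1 at 8 pm in cK15 (limma adjusted p = 0.381). Alas1, the first enzyme of heme synthesis, had limma adjusted p = 0.325. Manf, which encodes a secreted protein of the endoplasmic reticulum's stress response and was placed in no role group, had limma adjusted p = 0.527.

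None of the 8 members of chromatin, transcription and RNA passed either, and 4 had an unadjusted p under 0.05. Leo1, whose printed sequence holds the ROR element, was at 9.26, 13.8 and 20.7 FPKM at 8 am and 3.22, 5.24 and 5.51 at 8 pm in control, and at 9.06, 13.3 and 17.3 and 2.83, 6.07 and 9.15 in cK15. The libraries of a single time were far apart in both genotypes (cK15 amplitude 0.59, SE 0.14, limma adjusted p = 0.119). With a term for the 12 libraries that stood apart the adjusted p of Leo1 was 0.000718, and without those libraries it was 0.0252. Tuba8, the other gene shown with this element, had limma adjusted p = 0.126.

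At the other end were members of clear control amplitude whose cK15 curve had an unadjusted p of 0.05 or more. The 6 of largest control amplitude were Mrpl23, Rasl11b, Cyr61, Arhgef19, Gfpt2 and Bik. Rasl11b, a Ras-like GTPase, was at 2.61, 4.85 and 4.88 FPKM at 4 am and 1.11, 1.64 and 1.71 at 8 pm in control, and at 0.618, 1.42 and 1.83 and 1.16, 1.69 and 2.39 in cK15. The control groups did not overlap and the cK15 groups did (cK15 amplitude 0.16, SE 0.088, limma adjusted p = 0.889). These times were its highest and lowest in control, so the gap in control follows in part from the choice. In cK15 its highest time mean was at 8 pm and its lowest at 12 pm. Cyr61, also called Ccn1, was at 9.001, 9.33 and 12.7 FPKM at 8 am and 3.8, 4.23 and 5.11 at 8 pm in control, and at 7.05, 7.998 and 9.65 and 3.2, 6.73 and 7.21 in cK15. Its cK15 libraries of 8 am overlapped those of every other time (amplitude 0.15, SE 0.091, limma adjusted p = 0.915).

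Arhgef19, an exchange factor for small GTPases, had a control amplitude of 0.41 and a cK15 amplitude of 0.13, SE 0.076 (limma adjusted p = 0.909). Gfpt2, an enzyme at the entry of hexosamine synthesis, was closer to the threshold, with 0.41 in control and 0.24, SE 0.095 in cK15 (limma adjusted p = 0.595). Bik, a pro-apoptotic protein of the BCL2 family, had 0.40 and 0.25, SE 0.11 (limma adjusted p = 0.679). Mrpl23, of the mitochondrial ribosome, was a low and scattered RNA and the only member listed at 0 in any library (0, 0.795 and 1.41 FPKM at 8 pm in control and 0, 2.3 and 2.49 in cK15). A p that misses the threshold does not show that these genes lacked a rhythm in cK15.

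The amplitude was smaller in cK15 than in control in 93 members and larger in 9, and under 50% of control in 30. The median was 0.31 in control and 0.21 in cK15, where 56 members still reached 0.2. Over all tested genes the medians were 0.092 and 0.084. A lower amplitude is what choosing genes by a large control amplitude gives even where the genotypes do not differ. A smaller cK15 amplitude was also found in 71 of 76 midday, 59 of 71 evening and 89 of 99 midnight genes chosen alike. In the cK15 libraries the rule's thresholds were met by 0.66% of all genes, 65 after the same exclusions. Those genes showed the reverse, with a median amplitude of 0.33 in cK15 and 0.28 in control. Of the 65, 28 were members (43.1% of that list and 27.5% of the members). The median amplitudes by role, in control and then cK15, were 0.43 and 0.34 for matrix and adhesion, 0.40 and 0.27 for muscle load and calcium, 0.33 and 0.25 for receptors and vessels, 0.29 and 0.20 for the cytoskeleton, 0.28 and 0.17 for transport and metabolism, and 0.24 and 0.13 for chromatin and RNA. In every one of these groups the cK15 median was the lower.

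**Figure D3:**
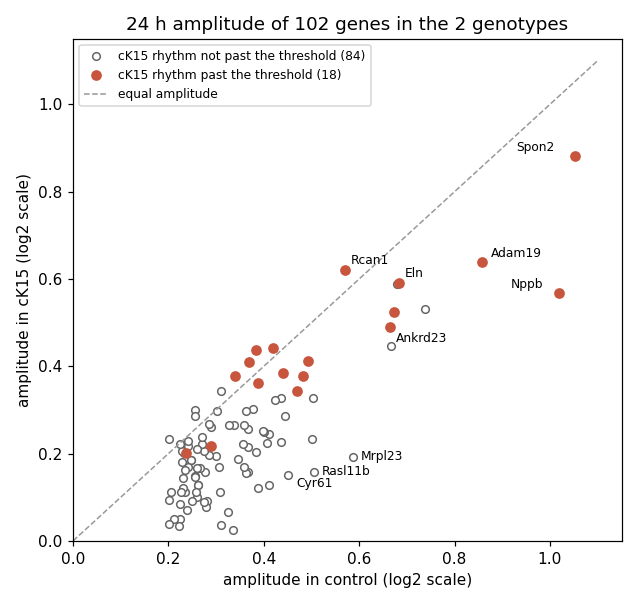
Each point is a member, with its fitted amplitude in control on the x axis and in cK15 on the y axis (log2 scale), colored by whether it passed the rhythm test in cK15; the diagonal marks equal values. The 9 points above the diagonal and the 93 below it follow in part from the choice by control amplitude.

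The fitted peak was earlier in cK15 than in control in 83 members and later in 19, with a median of -1.49 h. Among the 18 that passed in cK15, where the cK15 peak is best fixed, it was earlier in 16, with a median of -1.58 h and a range of -2.60 to 0.46 h. Arhgef10l had the most negative value of the 18, with peaks at 9.3 h in control and 6.71 h in cK15 (SE 0.6004 and 0.637). Kdr peaked at 8.43 and 6.71 h (SE 0.429 and 0.541) and Ankrd23 at 8.46 and 6.61 h (SE 0.346 and 0.455). The 2 that were later were Thbs1, at 8.44 and 8.91 h, and Ypel2, at 4.69 and 4.73 h. With times 4 h apart these are positions of a fitted curve, not observed peaks.

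Earlier fitted hours were also found among the other rhythmic genes. Control-rhythmic genes with a peak at midday (10 to 16 h), in the evening (16 to 22 h) and around midnight (22 to 4 h) had median differences of -0.73, -1.50 and -1.35 h, with 52 of 76, 62 of 71 and 84 of 99 genes earlier. All 15 clock genes that met the control thresholds were earlier, with a median of -1.59 h. Among those of the morning window, the control and cK15 peaks were at 6.56 and 5.02 h for Arntl, 6.94 and 5.91 h for Clock and 6.64 and 5.70 h for Npas2. The window that chose the members bounds their control peak but not their cK15 peak. Of the 65 genes chosen in cK15 instead, 52 were earlier in cK15, with a median of -1.43 h. Of these 65, 28 were members and 41 had a control peak from 4 up to 10 h, so the sets are not independent. The differences in peak hour were not tested.

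**Figure D4:**
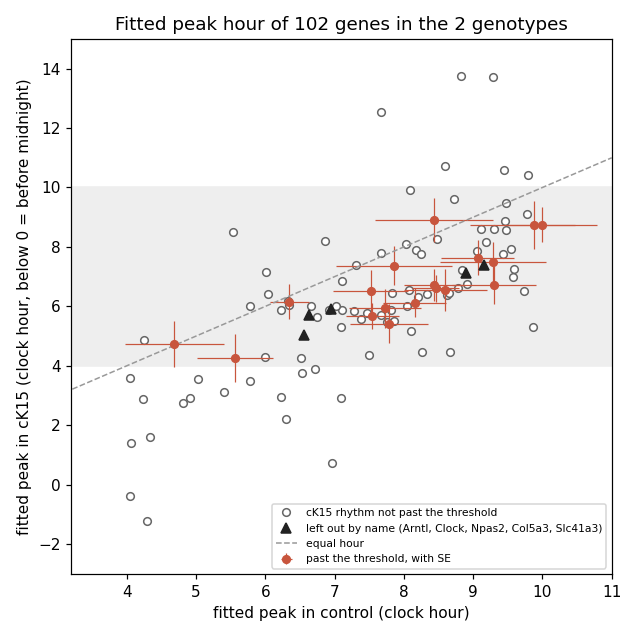
Each point is a member at its fitted peak hour in control (x axis) and in cK15 (y axis, hours of the 24 h day); filled points with SE bars passed the rhythm test in cK15, triangles are the 5 genes left out by name, the shaded band is 4 to 10 h, and the dashed line marks equal hours. Points lie below the diagonal in 83 of 102 members, with a median difference of -1.49 h.

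The level averaged over the 6 times is another contrast than the time-of-day curve and was tested over all 36 libraries, although the rule favors genes of small scatter in control. It differed in 19 members (18.6%), against 11.2% of all tested genes (limma, Benjamini-Hochberg adjusted p under 0.05). It was higher in cK15 in 8 members (4.06% of all genes were) and lower in 11 (7.18% of all were). The median log2 fold change was -0.04 over the members and -0.01 over all genes. Without the 12 libraries that stood apart, 4 were higher and 5 lower. With the replicate number as a block, only Epha4 and Btnl9 passed. The adjusted p of Pip5k1b, Ap1b1, Spon2, Rasl11b, Upp1, A1bg, Cyr61, Murc and Plcd3 then lay between 0.0531 (Pip5k1b) and 0.465 (Plcd3). The number higher was 4 or 5 without any 1 of 6 libraries (cK15 4 am replicate 4 and 8 pm replicate 1, and control 12 am replicate 3, 8 am replicate 3 and 4 pm replicates 2 and 4).

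Cell markers differed between the genotypes as well. All 6 fibroblast markers tested and 7 of 9 macrophage markers were lower in cK15, none of either was higher, and 2 of 8 heart muscle markers were higher (limma adjusted p under 0.05). The summed FPKM of the fibroblast markers had time means of 1477 to 1592 in control and 1281 to 1431 in cK15, and that of the macrophage markers 212.7 to 254.2 and 170.9 to 232. No marker of either list was at 0 in every library. Among the lower members were Spon2 and the cadherin gene Cdh11. The part of these markers in the members' differences was not tested.

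Epha4 was higher in cK15 by 0.33 on the log2 scale (limma adjusted p = 2.23e-05). Its lowest, median and highest library were at 10.004, 13.9 and 21.9 FPKM in control and 12.7, 17 and 27.6 in cK15 so that the ranges overlapped. At 4 am all 3 cK15 libraries (22.4, 22.6 and 22.6) stood above all 3 of control (14, 14.6 and 16.7). Its call held in all 52 alternatives run for it. Ap1b1, a subunit of a clathrin adaptor, rose by 0.24 (limma adjusted p = 0.00101) and Pip5k1b, a lipid kinase, by 0.22 (limma adjusted p = 0.000916). In the annotation Ap1b1 overlaps Nefh, and Pip5k1b overlaps Fam122a. Cyr61 (0.26, limma adjusted p = 0.0341), Murc (0.22, adjusted p = 0.0346) and the phospholipase gene Plcd3 (0.20, adjusted p = 0.0451) were higher by a margin that 20 of 52, 24 of 52 and 30 of 51 alternatives removed. Leaving out single libraries of either genotype took their adjusted p up to 0.0627, 0.0619 and 0.0838.

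Among the 11 lower members, Btnl9, a butyrophilin-like protein, had the smallest adjusted p. It was at 6.43, 8.07 and 9.95 FPKM in control (lowest, median and highest) and at 4.52, 5.87 and 7.31 in cK15, and fell by 0.41 on the log2 scale (limma adjusted p = 1.85e-06). The cK15 median lay below the lowest control library. Its call, too, held in all 52 alternatives. Rasl11b fell by 0.47 (limma adjusted p = 0.00123), from 1.11, 2.15 and 4.88 FPKM in control to 0.618, 1.42 and 2.39 in cK15.

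Spon2 fell by 0.44 (limma adjusted p = 0.000949), and its 3 control libraries of 8 am, named above, were all higher than the 3 of cK15. Upp1, an enzyme of uridine breakdown, fell by 0.34 (limma adjusted p = 0.00318), and A1bg, which encodes a plasma glycoprotein, also by 0.34 (limma adjusted p = 0.0144). Further lower members were Lrrn3, Cdh11, Polq, Grk5 and Cald1, and the other 2 higher ones Klhdc8a and Clasp1. Spon2, Epha4 and Clasp1 passed both tests, that of rhythm in cK15 and that of genotype.

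**Figure D5:**
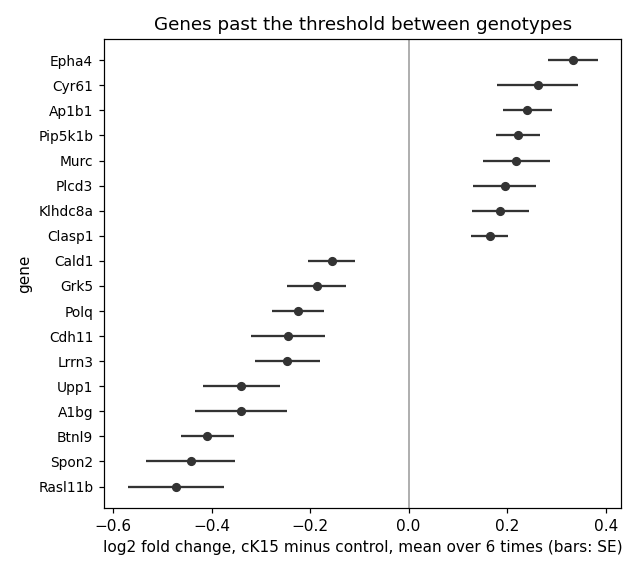
Points are the averaged log2 fold changes, cK15 minus control, of 18 of the 19 members that passed, with their standard errors; positive values are higher in cK15. The values run from -0.47 (Rasl11b) to 0.33 (Epha4).

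Members were 0.962% of all tested genes, a share at which a list of 18 to 35 genes would hold under 1. Matrix genes gave 5 of 33, hypertrophy genes 2 of 21 and membrane transport 2 of 18 (Slc38a2 and Tfrc). Endoplasmic reticulum folding gave 1 of 19 (Manf, 5.26%) and adrenergic signaling 1 of 21 (Grk5, 4.76%), each a single gene and too few to read. At these list sizes a count of 0 is no result. It was the count for branched-chain amino acid breakdown, fatty acid uptake and oxidation, oxidative phosphorylation, glycolysis, ribosomal proteins, sarcomere genes, ion channels and calcium handling, and for the markers of heart muscle cells, fibroblasts and macrophages. The summed FPKM of 8 heart muscle markers had time means of 81100 to 92690 in control and 90850 to 97990 in cK15, with the control minimum at 8 am. The summed FPKM of neutrophil markers was highest at 8 am in both genotypes, at 9.45 ± 6.13 in control and 10.7 ± 2.98 in cK15 (SD, n = 3), against time means of 0.59 to 6.46 otherwise. Whether these cell markers have a part in the members' rhythm was not tested.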

How the data were processed

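RNA of 36 heart libraries, 18 per genotype, was compared. The authors deposited FPKM values, a table per genotype; the submitters' processing notes name GSNAP, HTSeq and the build mm10, without versions; how FPKM was computed, and on which annotation, was not stated. FPKM scales each library to its total, so a few abundant genes can lower all others. Low values did not fall on steps of whole reads, so depth is unknown and no counting interval is given. All 23352 entries were paired between the tables; 27 symbols that spreadsheet software had turned into dates and 2 that occurred more than once were tested but not named, and none was a member.

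The 10599 genes whose FPKM averaged at least 1 were analysed as log2(FPKM + 1), so that fold changes and amplitudes understate those of low genes. Members were found by least squares. The rhythm in cK15 (F test of cosine and sine, 18 libraries) and the genotype difference (12 group means, averaged over 6 times, 36 libraries) were tested with limma 3.58.1 in R 4.3.3, with variances moderated along mean expression and robustly, and Benjamini-Hochberg adjustment over all tested genes. The procedure was tested on simulated data. Whether libraries of a group are separate animals is not stated, so p-values reflect only how far these libraries differ, in part perhaps for technical reasons.

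The members and the 30 lists of functions and 12 of cell markers were chosen with earlier results of these data known. The genes named are the 12 members of largest control amplitude, the 8 others of smallest cK15 adjusted p, the 6 highest and 6 lowest genotype calls, the 6 of largest control amplitude with an unadjusted cK15 p of 0.05 or more, members of a list, those at the edges of the rule, and those whose promoters are printed. A few genes that the rule or a group would name are not reported here. Other members, and the 6 groups of roles (33 members in none), were chosen after their values were seen. Gene coordinates, overlaps and promoters are from RefSeq for GRCm38.p6, the assembly that mm10 names. Alternatives were other pseudocounts, filters and scalings, plain variance moderation, terms for or removal of the 12 libraries, time means in place of the curve, a replicate block, and leaving out each library or replicate number.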

Additional observations from a re-analysis of the deposited data

How the results depend on the processing

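The 6 highest and 6 lowest genotype calls kept their sign in every alternative run, and the median peak difference stayed negative. The median genotype log2 fold change over all genes did not keep its sign, at -0.036 to 0.019. A fitted amplitude is never negative, so it has no direction to reverse. The number of genes that met the rule was 102, 48 with a pseudocount of 5, 209 without the 12 libraries that stood apart (81 of them members) and 87 to 184 when libraries were left out. Members that passed the cK15 rhythm test numbered 18; they were 35 (31 with a morning peak) with a term for the 12 libraries, 9 (9) without these libraries, 7 (7) with 6 time means, and 3 to 18 when libraries were left out (3 to 18 with a morning peak). All genes called in cK15 numbered 114, with 261 under the term, 42 with time means, 202 with the replicate block and 33 to 127 with libraries left out (75 without the 8 am library of replicate 4). The median cK15 amplitude was 0.24 with a pseudocount of 0.1 and 0.13 with 5. Members lower in cK15 (11) were 5 at a mean FPKM of at least 5, 6 after quantile normalization, 5 without the 12 libraries and 6 to 13 with libraries left out; members higher (8) were 4 without the 12 and 4 to 9. The cause of these changes was not tested, and leaving out libraries gave higher counts in some settings and lower ones in others. The median peak difference stayed between -1.87 and -1.08 h in 7 alternatives, with 72 to 85 members earlier. With replicate number as a block, 1 member was higher (Epha4) and 1 lower (Btnl9). The numbers were not treated as pairing the libraries, since not every pair of same-numbered libraries correlated over 0.1 in their deviations from the group means. Of 15 pairs of times, all 15 did for replicate 3 in each genotype and 10 for each other number (lowest -0.322 in control and -0.284 in cK15). All 10 pairs without 8 pm did for every number (0.187 to 0.554), so each exception involved 8 pm, where the library that stood apart was replicate 4 and not replicate 2 (control) or 1 (cK15) as at the other times. The meaning of the numbers is not stated, and a block with other numbers at 8 pm was not run; with a term for the 12 libraries 9 members were higher and 13 lower.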
